A study of Mus musculus with 4 samples.

Results

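Nuclear genes for the subunits of oxidative phosphorylation were followed in C2C12 myoblasts, an established mouse line of muscle precursor cells, after siRNA against HuR or control siRNA. The members were the clone spots whose listed symbol begins with Ndufa, Ndufb, Ndufc, Ndufs, Ndufv, Uqcr, Cox4 to Cox8 or Atp5, or is Cyc1 or one of Sdha to Sdhd, without spots described as mitochondrial genome. They were 47 of 16842 clone spots and stood for 33 of 6740 named genes. Of these genes 9 belonged to complex I, 1 to complex II, 2 to complex III, 8 to complex IV and 11 to complex V. The other 2 were Ndufaf1, which the prefix picks up although it encodes an assembly factor, and Cox7a2l, which encodes a protein that joins complexes III and IV.

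Oxidative phosphorylation passes electrons from NADH and succinate through complexes I to IV to oxygen and uses the proton gradient so built to make ATP at complex V. Most subunits are encoded in the nucleus, and a small core is encoded by the mitochondrial genome, whose clones are not described here. Myoblasts are known to raise mitochondrial content when they differentiate into fibres, while proliferating myoblasts draw more on glycolysis. Elavl1 encodes HuR, which binds AU-rich mRNAs, and the study's title names it together with KSRP and nucleophosmin mRNA.

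Both groups were proliferating cells in serum-rich medium that differed in the siRNA, and each group had 2 arrays of spotted cDNA clones hybridised with 33P-labelled cDNA. Whether a group's 2 arrays stand for separate cultures is not in the labels, and p-values then measure only array-to-array spread, possibly technical. Values are z-scores: a value of 1 is 1 SD above the mean of the array section, and differences are in the same z units. They give no fold change, and fewer cells with a transcript cannot be told apart from less RNA per cell. The number of arrays limits the precision. Elavl1 had z-scores of -0.2 and -0.21 with HuR siRNA and -0.12 and -0.2 with control siRNA, a difference of -0.045 (SE 0.047), with the value -0.2 in both groups. These are values of the brighter of its 2 clones, and with clones averaged the difference was -0.0075. The deposited table is also titled after siRNA against NPM, so each group is called by its sample label only, and every direction below carries that doubt. Npm1, which encodes nucleophosmin, had 0.23 and 0.4 with HuR siRNA against -0.07 and 0.04 with control siRNA on the brighter of its 2 clones. The difference was 0.33 (SE 0.079, limma adjusted p = 0.9905), higher and without overlap. Of the myoblast markers 1 of 8 was measured, Vim, with z-scores of 0.57 to 0.64, and fibroblasts express it as well. Of the markers of other cell types 3 of 8 were measured, the endothelial genes Cdh5 at -1.59 to -1.05 and Pecam1 at -0.2 to 0.02 and the neuronal gene Tubb3 at 1.15 to 1.22. Their part in the results was not tested.

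Many nuclear genes of these complexes are known targets of the factors NRF1 and GABP, and promoters were therefore searched for a feature the choice of members did not use. RefSeq windows from 250 bases before to 50 bases after the start (GRCm38.p6) were found for 27 of the 33 genes. The NRF1 motif, GCGCA and GCGC parted by any 1 base and read on either strand, was present for 7 of the 27 genes (25.9%), against 7.17% of 17492 protein-coding genes with a window. The ETS core CCGGAAG, which GABP binds, was also present for 7 (25.9%, against 12.9%). A YY1 motif was present for 1 (3.7%, against 1.06%). The protein-coding genes compared were not limited to those with a clone on the array. Cox6a1 and Atp5k held both of the first 2 motifs. Of 28 further genes of these families, described below with their provisional symbols, 23 had a window. The NRF1 motif was present for 5 of these (21.7%) and the ETS core for 10 (43.5%). These shares describe letters in a window and not binding, and no test was made.

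The stretches below show the NRF1 match, in capitals, before the start of 4 members from complexes II, IV and V, each 5′ to 3′ on the gene's strand, which is the minus strand in all 4. They are shown because the NRF1 share of the 33 genes stood furthest from that of other genes, among the motifs found in more than 1 member. They include Atp5k, whose values stand apart below. Ndufc1 and Atp5j2, whose differences are larger than that of Atp5k, held no NRF1, ETS or YY1 motif in their windows. A relation between motif and difference was not tested. Atp5k lies at chr5:108434410-108434479 and its match covers bases -50 to -41 from the start. Atp5g2 lies at chr15:102671050-102671119, Cox6a1 at chr5:115349081-115349150 and Sdha at chr13:74350256-74350325.
Atp5k: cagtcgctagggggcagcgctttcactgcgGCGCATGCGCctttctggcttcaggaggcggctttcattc
Atp5g2: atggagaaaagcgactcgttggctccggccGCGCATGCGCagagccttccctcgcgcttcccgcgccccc
Cox6a1: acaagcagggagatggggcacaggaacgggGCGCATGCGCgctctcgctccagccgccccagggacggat
Sdha: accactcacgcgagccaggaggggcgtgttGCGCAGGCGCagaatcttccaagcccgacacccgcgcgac
The first 3 share the palindrome GCGCATGCGC. Sdha has the match GCGCAGGCGC in this stretch and 2 further matches in the window. Cox6a1 also has a further match, GCGCAGGCGC, at bases -117 to -108. Atp5c1 has a match before the start as well, at bases -17 to -8, and its stretch is not printed.

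Of the 33 genes 0 reached a limma adjusted p under 0.05 (each had adjusted p = 0.9905), and of all 14042 features 0 did (0%). Before adjustment 3 members were under 0.05, against 3.75% of all features. They were Ndufc1 and Atp5k on the higher side (1.41% of all features) and Atp5j2 on the lower side (2.34%). The groups did not overlap at 8 members, against 27.2% of all features, of which 3 lay higher (against 13.6%) and 5 lower (against 13.7%). The count of 8 of 33 is near that background. For 27 of the 33 genes the difference between groups was no larger than the wider of the gaps between 2 arrays of a group. The same held for 11493 of all 14042 features, a similar share. The 95% intervals reached from 0.103 to 0.309 z units on either side of the difference, with a median of 0.138, before any adjustment for the number of features. Larger differences, such as those of Ndufc1 and Atp5j2 below, also missed the adjusted threshold.

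By sign, 21 members lay lower with HuR siRNA and 12 higher, with a median difference of -0.025, beside 46.8% lower, 49.7% higher and a median of 0 over all features. The median depended on which array was left out. It was -0.005 without HuR siRNA replicate 1, with 17 members lower, and 0 without control siRNA replicate 2, with 16 lower. Without HuR siRNA replicate 2 it was -0.025, with 21 lower, and without control siRNA replicate 1 it was -0.015, with 23 lower. The median over members was -0.07 and -0.06 on the HuR siRNA arrays and -0.03 and 0.03 on the control arrays. Both HuR siRNA medians lay below both control medians, and the nearest ones of the groups were closer to each other than the control arrays were.

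**Figure D1:**
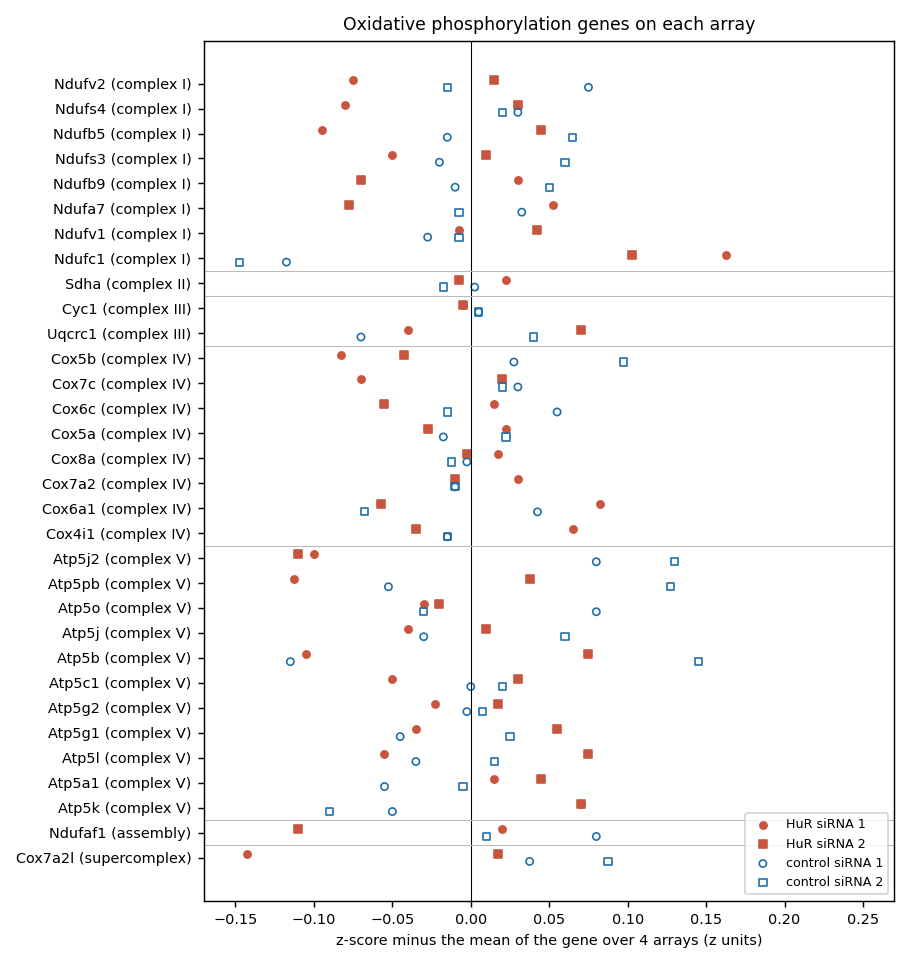
Each row is 1 of 32 of the 33 genes, and each point is 1 array, plotted as z-score minus the mean of that gene over the 4 arrays (x axis, z units); filled red symbols are HuR siRNA and open blue symbols control siRNA, with circles for replicate 1 and squares for replicate 2. The arrays of the groups overlap for 25 genes, and Ndufc1, Atp5j2 and Atp5k show the widest distances between groups that do not overlap.

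Complex I takes electrons from NADH, and 7 of its 9 members lay lower with HuR siRNA, with a median difference of -0.04. That count was 5 of 9 without HuR siRNA replicate 1 and also without HuR siRNA replicate 2. It was 7 without control siRNA replicate 1 and 6 without control siRNA replicate 2. The median difference was -0.01 without HuR siRNA replicate 1 and -0.07 without HuR siRNA replicate 2. Without control siRNA replicate 1 it was -0.045, and without control siRNA replicate 2 it was -0.01. With grid medians removed it was -0.0125. Among the core subunits, Ndufv2, an iron-sulfur subunit of the NADH-oxidising tip, had 0.4 and 0.49 with HuR siRNA against 0.55 and 0.46 with control siRNA, and the groups overlapped (difference -0.06, SE 0.058).

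Ndufv1, which binds NADH, was at -0.35 and -0.3 with HuR siRNA and -0.37 and -0.35 with control siRNA, a difference of 0.035 (SE 0.042). Ndufs3, another core subunit, differed by -0.04 (SE 0.051). Of these core subunits only Ndufv1 lay above 0, and each 95% interval included 0. The core subunits Ndufs7 and Ndufs8, listed under provisional symbols, differed by -0.115 (SE 0.088) and -0.04 (SE 0.048), with overlap. Among accessory subunits, Ndufs4, whose loss impairs complex I in mice, had 0.18 and 0.29 against 0.29 and 0.28, a difference of -0.05 (SE 0.054). Ndufb5, Ndufb9 and Ndufa7 differed by -0.05, -0.04 and -0.025.

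Ndufc1, a small accessory subunit of the membrane arm, had the lowest unadjusted limma p of the members. The clone with the higher mean was at -0.29 and -0.35 with HuR siRNA and at -0.57 and -0.6 with control siRNA. The groups did not overlap. HuR siRNA minus control siRNA was 0.265, with an SE of 0.044 and a 95% interval of 0.145 to 0.385, and limma's adjusted p was 0.9905. The other Ndufc1 clone went the opposite way, with -0.5 and -0.58 against -0.41 and -0.41, a difference of -0.13 (SE 0.048), again without overlap. The 2 clones lay at similar mean z-scores (-0.453 and -0.475), and their mean gave a difference of 0.0675. For the first clone the deposited table carries a second annotation that names an expressed sequence of another UniGene cluster in place of Ndufc1. Which gene that clone measures was not tested.

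Complex II oxidises succinate and has no subunit from the mitochondrial genome. Its catalytic flavoprotein, Sdha, was at -0.37 and -0.4 with HuR siRNA and -0.39 and -0.41 with control siRNA, a difference of 0.015 (SE 0.04, 95% interval -0.093 to 0.123). A second Sdha clone had a difference of 0. In complex III, which passes electrons to cytochrome c, the core protein gene Uqcrc1 had -0.55 and -0.44 against -0.58 and -0.47, a difference of 0.03 (SE 0.065). Its other clone differed by 0.09 (SE 0.135). Both Uqcrc1 clones had wider gaps within groups than between them.

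Cyc1, the haem-carrying cytochrome c1, was at 3.16 on both HuR siRNA arrays and 3.17 on both control arrays. The groups did not overlap, by 0.01 z units, which is the last decimal of the deposited values. The limma SE of 0.038 exceeds this difference, since it borrows the spread of all features.

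**Figure D2:**
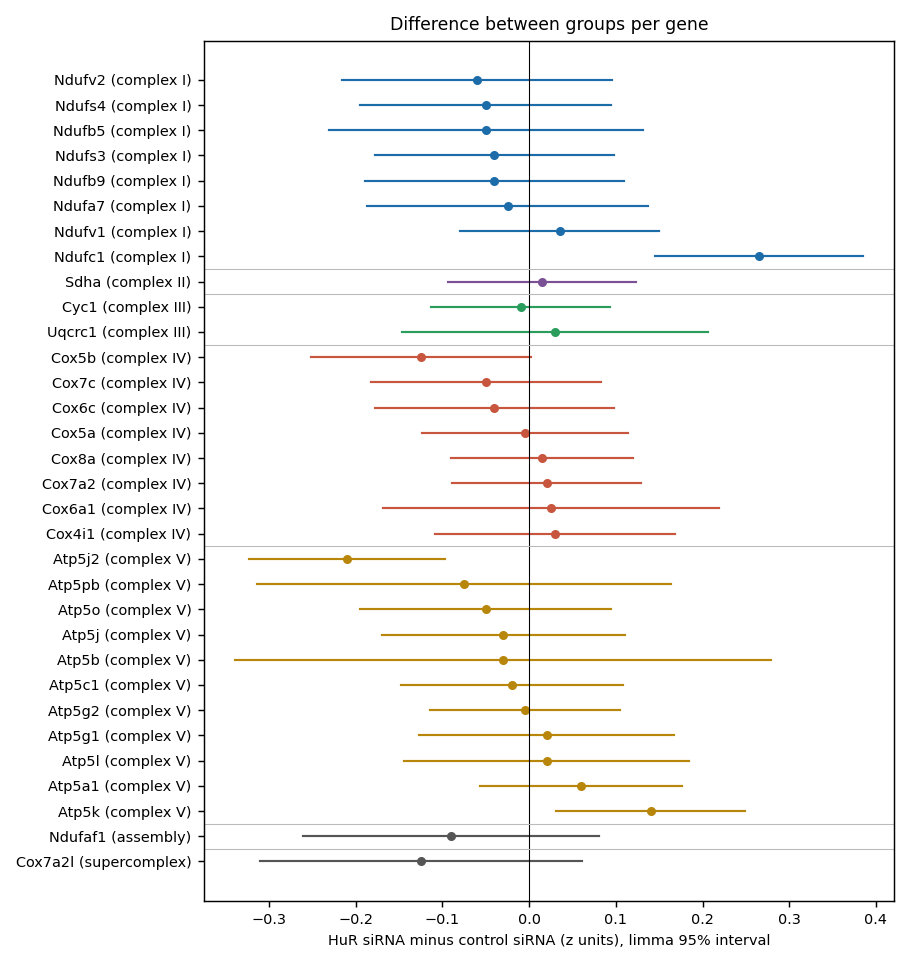
Points are the differences in mean z-score between HuR siRNA and control siRNA for 32 of the 33 genes (x axis, z units) and bars are limma 95% intervals; colours mark the complexes. The intervals of 29 of the genes drawn include 0, and those of Ndufc1 (0.265), Atp5j2 (-0.21) and Atp5k (0.14) do not, before any adjustment for the number of features.

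Complex IV reduces oxygen, and its 8 members were split evenly, 4 higher and 4 lower, with a median difference of 0.005. Cox5b, a zinc-binding subunit on the matrix side, was at -0.02 and 0.02 with HuR siRNA and at 0.09 and 0.16 with control siRNA. Both HuR siRNA arrays lay below both control arrays, with a mean difference of -0.125 and an SE of 0.047. The 95% interval was -0.252 to 0.002, and limma gave an adjusted p of 0.9905. Cox7c, a small membrane subunit, had 0.42 and 0.51 against 0.52 and 0.51, a difference of -0.05 (SE 0.049) with equal values on 2 arrays. Its other clone, on another source plate, had 0.4 and 0.31 against 0.53 and 0.48, a difference of -0.15 (SE 0.053) without overlap. Cox6c and Cox5a differed by -0.04 and -0.005.

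Several subunits of complex IV come in isoforms, one form widely expressed and another found in heart and skeletal muscle. Of 13 isoform genes, 4 were among the members, Cox4i1, Cox6a1, Cox7a2 and Cox8a, all of them the widely expressed form. A further one, Cox6b1, was listed under a provisional symbol. The muscle forms Cox6a2, Cox7a1 and Cox8b had no clone named in the table and are not analysed here. Cox4i1 (listed as Cox4a) was at 0.91 and 0.81 with HuR siRNA and 0.83 on both control arrays, and the groups overlapped (difference 0.03, SE 0.051). Cox6a1 had -0.03 and -0.17 against -0.07 and -0.18, Cox7a2 (listed as Cox7a3) had -0.13 and -0.17 against -0.17 and -0.17, and Cox8a had 0.43 and 0.41 against 0.41 and 0.4. Their differences were 0.025, 0.02 and 0.015, each below its SE.

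Complex V makes ATP with a catalytic head, a rotating ring and stalk and a stationary stalk. Of its 11 members 4 lay higher and 7 lower, with a median difference of -0.02. Without HuR siRNA replicate 1 that median was 0.02, and without control siRNA replicate 2 it was 0.015. Without HuR siRNA replicate 2 it was -0.055, and without control siRNA replicate 1 it was -0.015. A pair of small membrane subunits had the largest differences, with opposite signs. Atp5j2, subunit f of the membrane part, was at -0.2 and -0.21 with HuR siRNA and at -0.02 and 0.03 with control siRNA. The distance between the groups was wider than the gap within either. The mean difference was -0.21, with an SE of 0.042 and a 95% interval of -0.323 to -0.097, at an adjusted limma p of 0.9905. It has 1 clone, and after grid medians were removed the difference was -0.118.

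Atp5k, subunit e, which helps ATP synthase form dimers, was at -0.13 on both HuR siRNA arrays and at -0.25 and -0.29 on the control arrays. The groups did not overlap. The mean difference was 0.14, with an SE of 0.041 and a 95% interval of 0.0305 to 0.2495, at an adjusted limma p of 0.9905. The removal of source plate medians gave 0.145. Atp5l, subunit g, is a partner of subunit e in dimers, and its brighter clone had 0.83 and 0.96 against 0.85 and 0.9, a difference of 0.02 (SE 0.061). The dimmer Atp5l clone had 0.11 and 0.24 against 0.38 and 0.36, which parted the arrays in the other direction (-0.195, SE 0.06). The Atp5k clone and the dimmer Atp5l clone had opposite signs.

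In the catalytic head, Atp5a1, the alpha subunit, had -0.07 and -0.04 against -0.14 and -0.09. The HuR siRNA arrays lay above the control arrays, by 0.06 in the mean (SE 0.043), and the difference was -0.03 after source plate medians were removed. Atp5b, the catalytic beta subunit, had 0.78 and 0.96 against 0.77 and 1.03, with gaps within groups of 0.18 and more and a difference of -0.03 (SE 0.114). Its 2 other clones differed by 0.03 and 0.005. Atp5c1, the rotating gamma subunit, differed by -0.02 (SE 0.047), and its other clone by -0.065.

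Of the stationary stalk, Atp5o had -0.51 and -0.5 against -0.4 and -0.51, a difference of -0.05 (SE 0.054), and Atp5pb (listed as Atp5f1) had -0.21 and -0.06 against -0.15 and 0.03, a difference of -0.075 (SE 0.088). Atp5j, also of this stalk, differed by -0.03 (SE 0.052). These 3 lay lower and overlapped between groups. Atp5h, subunit d of the same stalk, was listed under a provisional symbol. Its brighter clone lay higher, with 3.06 and 3.26 against 3.06 and 3.11, a difference of 0.075 (SE 0.08) with overlap. The dimmer Atp5h clone lay lower, with 0.16 and 0.25 against 0.34 and 0.33, a difference of -0.13 (SE 0.0499) without overlap. The ring subunit genes Atp5g1 and Atp5g2 encode the same mature protein and differed by 0.02 and -0.005, and a second Atp5g1 clone also differed by 0.02. Whether clones of such related genes share signal was not tested.

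In complex V, 8 of the 11 genes had replicate 2 above replicate 1 in both groups, against 28.1% of all features. Over the 33 genes this held for 14. For complex IV it held for 1 of 8 genes, and 3 of 8 went the other way in both groups. The labels do not say what a replicate number marks, and the part of it in these values was not tested.

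**Figure D3:**
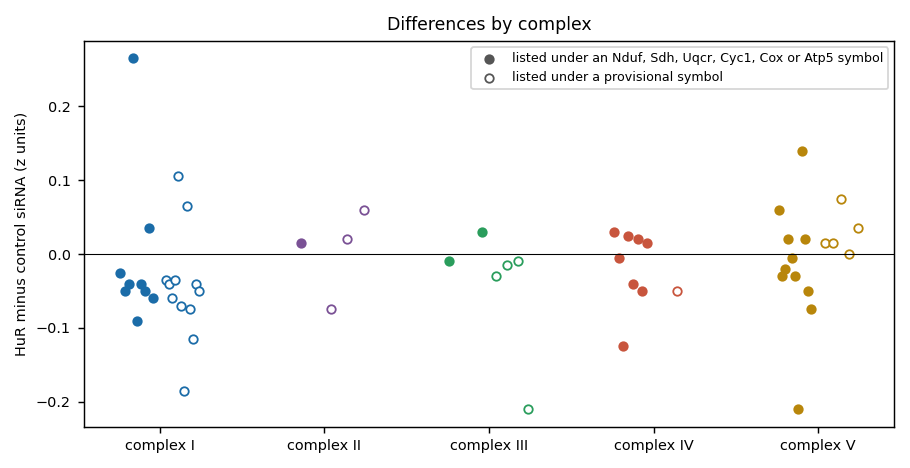
Each point is the difference in mean z-score between HuR siRNA and control siRNA (y axis, z units) of 1 gene, by complex; filled points are the 31 subunit genes found by symbol and open points the 25 found under provisional symbols. Most complex I points lie below 0 (17 of 21), and complex V points lie on both sides (8 above, 7 below and 1 at 0). The limma 95% intervals, not drawn, include 0 for 20 of the 21 complex I genes.

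Of the 2 genes outside the complexes, Ndufaf1, an assembly factor of complex I, had 1.17 and 1.04 against 1.23 and 1.16, a difference of -0.09 (SE 0.063) with overlap. Cox7a2l had -0.4 and -0.24 against -0.22 and -0.17 on its brightest clone, a difference of -0.125 (SE 0.069) without overlap. Its 2 other clones differed by -0.01 and 0.005. The difference of the first clone was therefore not seen on the others. For the clone at 0.005 a second annotation names another UniGene cluster, and which gene it measures was not tested.

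Several clones were spotted for 11 of the 33 genes, 25 clones in all, each a separate probe listed for its gene and measured on the same arrays. In 5 genes the clones shared a sign, in 5 they did not, and in Sdha 1 clone was at 0. In no gene did all clones part the arrays in 1 direction. The gap between the lowest and the highest clone had a median of 0.06, and it was 0.395 for Ndufc1 and 0.215 for Atp5l. Atp5j2, Atp5k and Cox5b have 1 clone each and cannot be checked this way.

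**Figure D4:**
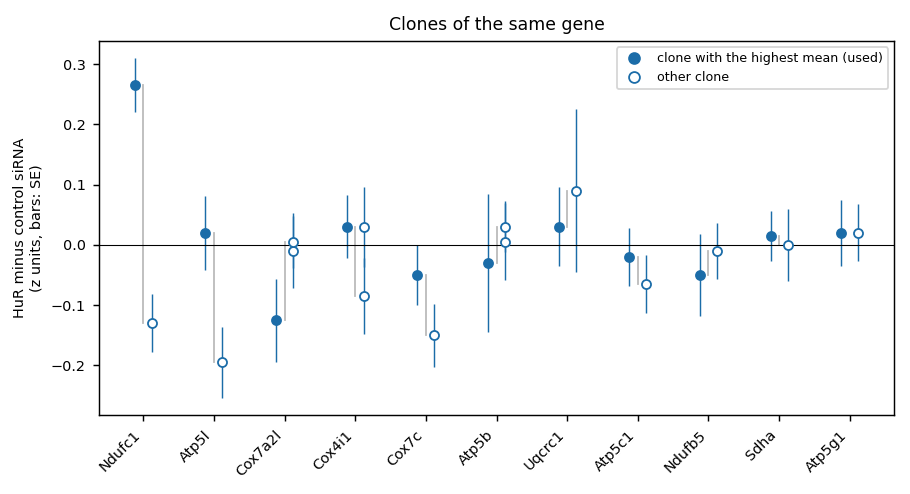
For the 11 genes with several clones, points are the difference in mean z-score between HuR siRNA and control siRNA of each clone (y axis, z units) and bars are limma SEs; filled points mark the clone used for the gene and open points the others. The 2 Ndufc1 clones lie on opposite sides of 0 (0.265 and -0.13), as do the Atp5l clones (0.02 and -0.195).

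Clones of 28 further genes of these families carry provisional symbols in the deposited table and were found through their gene IDs. They were not in the selection and were measured on the same arrays. Of these genes 18 lay lower, 9 higher and 1 at 0, with a median difference of -0.035. The groups were parted at 2 higher (13.6% of all features) and 8 lower (13.7% of all features), and 0 passed the threshold (lowest limma adjusted p = 0.9905). Of 12 complex I genes in this set 10 lay lower, against 46.8% of all features, and 5 of those were parted, against 13.7%, with differences of -0.04 (Ndufa12) to -0.185 (Ndufb7). Ndufb7 had 1.04 and 0.81 against 1.07 and 1.15, and its other, dimmer clone differed by 0.33 with an SE of 0.491. Ndufb10, an accessory subunit, was parted the other way, with 1.06 and 1.18 against 1.01 and 1.02.

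In complex III, Uqcrh, the hinge protein next to cytochrome c1, had -0.05 and 0 with HuR siRNA against 0.13 and 0.24 with control siRNA. The difference was -0.21 (SE 0.056, limma adjusted p = 0.9905), and it was named after its value was seen. The remaining complex II subunits Sdhb, Sdhc and Sdhd differed by -0.075, 0.02 and 0.06, so that complex II had members on both sides of 0. Of the 5 complex V genes 4 lay higher and 1 was at 0, by 0.075 at most, on the clone with the highest mean. The dimmer Atp5h clone went the other way, as given above. With both sets joined, 39 of 61 genes lay lower, a share to be read beside 46.8% of all features, and 17 of 21 in complex I. Leaving out 1 array gave 34 to 41 of 61. The joined complex I count was not recomputed with 1 array left out.

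Genes around the complexes came from 4 lists, and 0 of their members passed the threshold. The lists share 5 genes with the 61 above: Ndufaf1, Ndufaf3, Ndufaf4, Ndufaf6 and Atp5md. Of 54 assembly factors 23 were measured, 9 higher and 12 lower, with a median of -0.005. Ndufaf4, an assembly factor of complex I, had -0.67 and -0.65 against -0.43 and -0.51, a difference of -0.19 (SE 0.047), and Acad9, another one, differed by 0.125 (SE 0.065). Of 20 genes for mobile carriers and electron entry 13 were measured, 4 higher and 7 lower. Coq10b, a coenzyme Q binding protein, differed by -0.155 (SE 0.052), and Cycs, cytochrome c, by 0.11 (SE 0.045). Each value is that of the brightest clone, of 3 for Coq10b and 2 for Cycs. Cycs had 0.85 and 0.9 against 0.79 and 0.74, with both HuR siRNA arrays above both control arrays. In this list 1 gene was parted higher (13.6% of all features) and 2 lower (13.7% of all features).

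Of 13 genes for ATP export, uncoupling and inhibition 8 were measured, 1 higher and 4 lower. Slc25a5, an ADP/ATP carrier, differed by -0.11 (SE 0.064) and the mitochondrial creatine kinase gene Ckmt1 by 0.07 (SE 0.054). Of 18 transcriptional regulators and mitochondrial DNA factors 10 were measured, 5 higher and 5 lower. Ppargc1b, a coactivator of mitochondrial genes, had 1.07 and 1.11 against 1.28 and 1.13, a difference of -0.115 (SE 0.065). Polg, the mitochondrial DNA polymerase, differed by 0.08 (SE 0.045). Nrf1, whose motif is printed above, differed by 0.075 (SE 0.062) on the brightest of its 3 clones, with overlapping groups. Tfam, which packages mitochondrial DNA, differed by -0.1 (SE 0.078).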

How the data were processed

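The values the authors deposited are a score, a z-score as far as they show: within each of the 2 sections of 8448 spots the mean is 0 and the SD is 1 on every array. The sources used here give no scanner, background correction or log base. Both deposited tables were equal in all 67584 cells, and columns were matched to samples by siRNA and number. Clones were named through gene IDs, RefSeq accessions or symbols with the RefSeq table of GRCm38.p6 (names only). Of 16842 clone spots 9534 were named, and 112 spots with conflicting IDs were left unnamed. Per gene the clone with the highest mean over the 4 arrays was used, which left 14042 features.

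The test was limma's moderated one (version 3.58.1, R 4.3.3), two-sided and without a replicate block. Its p-values were adjusted over the 14042 features by Benjamini-Hochberg, with calls made under 0.05. Values of other clones come from the same fit over 16835 clones. An exact permutation test of 2 against 2 arrays was not used, as it cannot pass the threshold. The steps were tested on simulated data. Members, lists and tests were chosen with earlier results of these data known. Named genes were, per complex, the 3 of lowest unadjusted p in each direction, complex IV isoforms, genes whose clones disagreed and 2 genes per other list; further genes were added after their values were seen. Promoter sequences are RefSeq's. The results of 1 member are not reported here by name; it stays in the counts and medians.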

Additional observations from a re-analysis of the deposited data

How the results depend on the processing

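The count of members past the threshold was 0 under each of the 12 alternatives, with limma adjusted p of 0.399 to 1. Features past the threshold were 1 after quantile normalization and 0 elsewhere. Features at an unadjusted p under 0.05 were 527, 278 in the upper 50% of levels alone, which tests fewer, and 857 with the replicate block. With the replicate block, and also with trend and robust fitting, the members at an unadjusted p under 0.05 were 4 in place of 3. They were 2 with grid medians removed, with clones averaged and in the upper 50% of levels alone. The upper 50% holds 19 of the 33 members, without Ndufc1 and Atp5k. Arrays of 1 number deviated together with a correlation of 0.101, and 2 pairs are too few to show pairing. The complex IV median was 0.0288 with grid medians removed, -0.0038 with source plate medians removed and -0.0067 with clones averaged. Without the lower 50%, which left 5 of its 8 genes, it was -0.04. With 1 array left out it was -0.025 to 0.0225. The cause was not tested. The signs of 18 of the 33 members depended on the setting, and 15 reversed under none.

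With grid medians removed, the difference was 0.035 for Cox5a, 0.0125 for Ndufa7, -0.0175 for Uqcrc1. With all clones of a gene averaged, the difference was 0.0017 for Atp5b, -0.0875 for Atp5l, -0.0083 for Cox4i1. With source plate medians removed, the difference was -0.03 for Atp5a1, 0.005 for Atp5g2, -0.0025 for Cox8a. With 1 array left out, differences that changed sign ranged from -0.16 to 0.1 (Atp5b), -0.06 to 0.02 (Atp5c1), -0.025 to 0.065 (Atp5g1), -0.025 to 0.015 (Atp5g2), -0.075 to 0.015 (Atp5j), -0.045 to 0.085 (Atp5l), -0.105 to 0.005 (Atp5o), -0.165 to 0.015 (Atp5pb). Those of the other genes were -0.02 to 0.08 (Cox4i1), -0.03 to 0.02 (Cox5a), -0.045 to 0.095 (Cox6a1), -0.09 to 0.04 (Ndufa7), -0.12 to 0.02 (Ndufb5), -0.09 to 0.01 (Ndufb9), -0.105 to 0.005 (Ndufs4), -0.025 to 0.085 (Uqcrc1).

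Leaving out 1 array assumes that the lone array varies like the other group. The series matrix alternative was not run, because its values are equal. Trend and robust fits changed no direction.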
